A study of Mus musculus with 5 samples.

Results

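In colon tumors of mice treated with 5-FU and Irinotecan, 233 of 4570 cells carried transcripts of Paneth cell granule genes and none of 5 selected immune, endothelial or fibroblast genes. They were chosen by their measured UMI counts (unique molecular identifiers, the tags that count single RNA molecules) in 3 libraries, as cells with at least 5 UMIs summed over Lyz1, Defa17, Defa24, Defa23, Ang4 and Itln1, with that sum at 25 or more per 10000 UMIs of the cell, and with no UMI of Tyrobp, Ptprc, Csf3r, Pecam1 or Dcn. Only barcodes that had 500 or more genes and at most 15% mt- counts entered, which left 8491 cells in the whole series. As the values below show, the lower limit of this choice was also reached by myeloid cells, so the 233 cells are called marker-positive and not Paneth cells.

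The tumors were induced with azoxymethane and dextran sodium sulfate (AOM/DSS, a carcinogen and an agent that inflames the colon) in wildtype (WT) mice, which formed tumors in the distal colon. All 3 libraries came from mice given 5-FU and Irinotecan, drugs that act on dividing cells, and no untreated tumor was analysed here. Marker-positive cells numbered 87 of 748 in day 1 replicate 1, 109 of 2403 in day 1 replicate 2 and 37 of 1419 in day 3. Day 1 replicate 2 had dual indices and was read on a NovaSeq6000, while the other two had single indices and were read on a BGI MGI-Seq instrument, so library structure, sequencer and animal cannot be told apart. With 1 library at day 3, no test between days was possible.

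Paneth cells are secretory cells at the base of small intestinal crypts. Their granules hold lysozyme (Lyz1), alpha-defensins such as Defa17, Defa23 and Defa24, the ribonuclease Ang4 and the lectin Itln1, and they supply WNT, NOTCH and EGF family ligands to neighbouring stem cells. The normal colon holds few or none of them, and its deep crypt secretory cells, which express Reg4, take a like position. Their maturation depends on WNT signals through TCF factors and on Sox9, and the metalloprotease Mmp7 cuts mouse pro-defensins to their active form.

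The alpha-defensin genes lie in a cluster on chromosome 8 and differ at few bases, which bears on which gene a read is counted for. The ends of the coding sequences of the 3 defensins of the rule are shown for this reason (GRCm38, plus strand, last 108 coding bases before the stop codon, joined over an intron, with capitals at the 9 positions where the genes differ). Defa17 ends at chr8:21655972-21656638, Defa23 at chr8:21055252-21055918 and Defa24 at chr8:21734708-21735374.
Defa17: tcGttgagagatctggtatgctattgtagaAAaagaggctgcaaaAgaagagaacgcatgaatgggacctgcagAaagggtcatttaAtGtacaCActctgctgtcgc
Defa23: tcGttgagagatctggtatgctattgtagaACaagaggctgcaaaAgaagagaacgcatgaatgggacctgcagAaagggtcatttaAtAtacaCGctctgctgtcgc
Defa24: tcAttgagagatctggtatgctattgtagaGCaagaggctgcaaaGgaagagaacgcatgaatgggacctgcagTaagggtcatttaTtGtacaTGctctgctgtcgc
Over the whole coding sequence of 279 bases, Defa17 and Defa23 were 97.8% identical and each was 95.7% identical to Defa24. UMIs of single defensins are therefore given as the deposited counts hold them and are not read as separate evidence.

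The limit of the rule was also reached by cells with transcripts of myeloid genes. Of cells without the 5 excluded genes, 19.9% in day 1 replicate 1 reached it (exact 95% interval 16.2 to 23.9, 438 cells, median 2661.5 UMIs). Of cells with at least 2 UMIs of the myeloid genes Tyrobp and Csf3r in the same library, 17.4% did (10.8 to 25.9, 109 cells, median 2604 UMIs). At this limit the share of day 1 replicate 1 was thus near that of its myeloid cells, and the difference was not tested. Myeloid cells were taken with or without a Krt8 UMI, and 6 of these 109 had none.

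In day 1 replicate 2 the shares were 8.62% (7.13 to 10.3, 1264 cells, median 3914 UMIs) and 5.70% (3.9 to 7.99, 544 myeloid cells, median 2498.5 UMIs). In day 3 they were 4.04% (2.86 to 5.53, 915 cells) and 4.17% (0.509 to 14.3, 48 myeloid cells). The intervals of both sets overlapped in each library, but overlap is not a test and the differences were not tested. The 48 cells of day 3 are a weak reference, since 8 of them had 5 or more UMIs of the myeloid genes and their Krt8 stood at 2258 CPM (counts per 1000000 UMIs), against 2360 in other Krt8-positive cells. Krt8 stood at 1370 and 2342 CPM in the myeloid cells of day 1 replicate 1 and replicate 2, against 2017 and 3854 in other Krt8-positive cells. Whether free RNA or doublets with epithelial cells gave the myeloid cells these UMIs was not tested. Intervals cover counting error only.

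A marker sum of 100 or more per 10000 UMIs separated the sets in day 1 replicate 2. It was reached by 15 of 438 cells without excluded genes (3.42%, 1.93 to 5.59) against 1 of 109 myeloid cells (0.917%, 0.0232 to 5.01) in day 1 replicate 1. In day 1 replicate 2 it was reached by 49 of 1264 cells (3.88%, 2.88 to 5.09) against 0 of 544 myeloid cells, which allows a share of up to 0.551% by the floor of 3 counts and 0.676% by the exact 95% interval. In day 3 the counts were 13 of 915 (1.42%, 0.759 to 2.42) and 1 of 48 (2.08%, 0.0527 to 11.1), so that a difference was not detectable there. The intervals were apart in day 1 replicate 2 and overlapped in the other libraries. The 77 cells above this higher limit are called marker-high in what follows, and the 119 cells with a sum under 50 are called marker-low. These higher and lower limits were chosen after seeing the data.

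**Figure D1:**
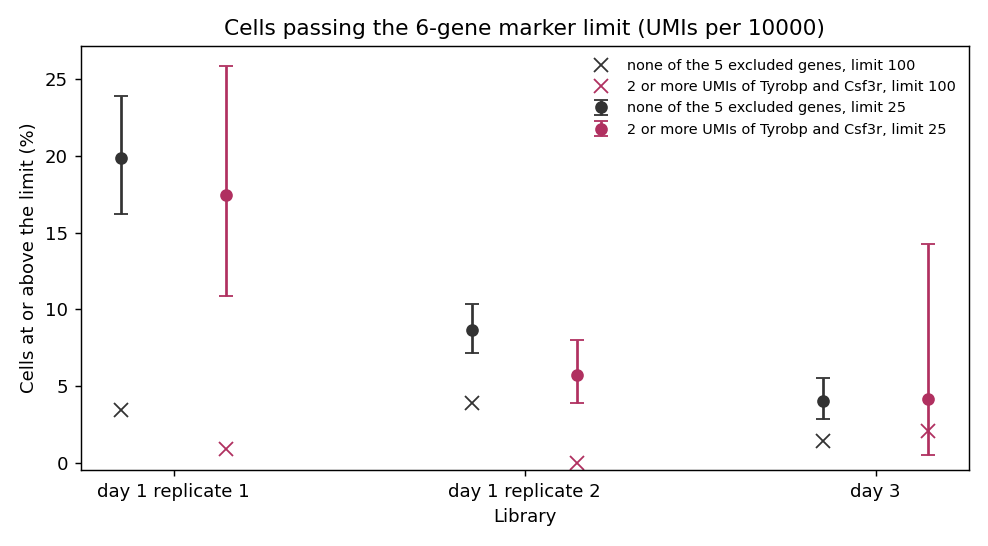
Share of cells (%) that reached a marker sum of 25 (circles, bars are exact 95% intervals) or 100 (crosses) per 10000 UMIs in each library, for cells without the 5 excluded genes (black) and cells with 2 or more UMIs of Tyrobp and Csf3r (red). At 25 the bars of both sets overlap in all 3 libraries, and at 100 the myeloid share is 0 of 544 cells in day 1 replicate 2.

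As a share of all kept cells, marker-positive cells made up 11.6% of day 1 replicate 1 (9.42 to 14.1), 4.54% of day 1 replicate 2 (3.74 to 5.45) and 2.61% of day 3 (1.84 to 3.58). With each cell thinned to 1000 UMIs the shares were 6.55%, 3.41% and 2.26%. In a cell of 1000 UMIs the lower limit of 5 marker UMIs is 50 per 10000, which is stricter than the rule's limit of 25. Thinning may also remove the UMIs of an excluded gene, so that other cells may enter. The thinned shares therefore do not show the effect of depth alone. The order of the libraries was the same with and without thinning. In both, the step between the replicates of day 1 was larger than that between day 1 replicate 2 and day 3. Order and step depended on the limit, however. At 10 UMIs and 50 per 10000, 19 of 748, 64 of 2403 and 23 of 1419 cells remained, and day 1 replicate 1 no longer had the highest share. Outside the 3 libraries, the same rule was met by 3 of 2826 cells of the treated day 6 tumor library (0.106%, 0.0219 to 0.310) and by 3 of 1095 cells of the normal colon stroma library. In the stroma library, whose table holds 3 of the 6 genes, the sum of those cells came from Ang4 alone (124 UMIs).

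Marker-positive cells were shallow, with a median of 1997, 1993 and 2075 UMIs in day 1 replicate 1, day 1 replicate 2 and day 3. The other Krt8-positive cells, which are used for comparison and numbered 330, 1133 and 840, had 3430.5, 4298 and 3017. Krt8, an epithelial keratin, had a UMI in 86 of 87, 108 of 109 and 37 of 37 marker-positive cells. It was also found in 95.2% to 98.1% of all kept cells of these libraries, so it selects epithelium only weakly. Cell barcodes shared between pairs of libraries numbered 7, 7 and 20, and no marker-positive barcode was shared.

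The 6 genes of the rule are described without a test, since they chose the cells. Lyz1 (lysozyme, GRCm38 chr10:117287797-117292868) stood at 7823, 8704 and 9693 CPM in marker-positive cells and at 425, 223 and 345 in other Krt8-positive cells. These sums rest on few cells. In day 1 replicate 1, 1 cell held 790 of 1902 Lyz1 UMIs, and the median cell held 4, 8 and 24 Lyz1 UMIs in the 3 libraries. Ang4 (chr14:51763878-51773590) stood at 2201, 2827 and 1045 against 209, 73.0 and 75.3.

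Defensins and Itln1 differed more between libraries. Defa17 (chr8:21655780-21656735) stood at 341, 4033 and 232 CPM in marker-positive cells, and Defa23 (chr8:21055047-21056016) at 160, 4049 and 65.3. Itln1 (chr1:171518122-171535294) stood at 94.6, 1464 and 43.5. All of these were highest in day 1 replicate 2, the dual index library. Defa24 (chr8:21734494-21735471), stood at 1423, 1430 and 392. In day 1 replicate 1, 1 of 87 cells held 234 of the 346 Defa24 UMIs, and without it the level was 514. Whether library structure has a part in these differences was not tested.

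**Figure D2:**
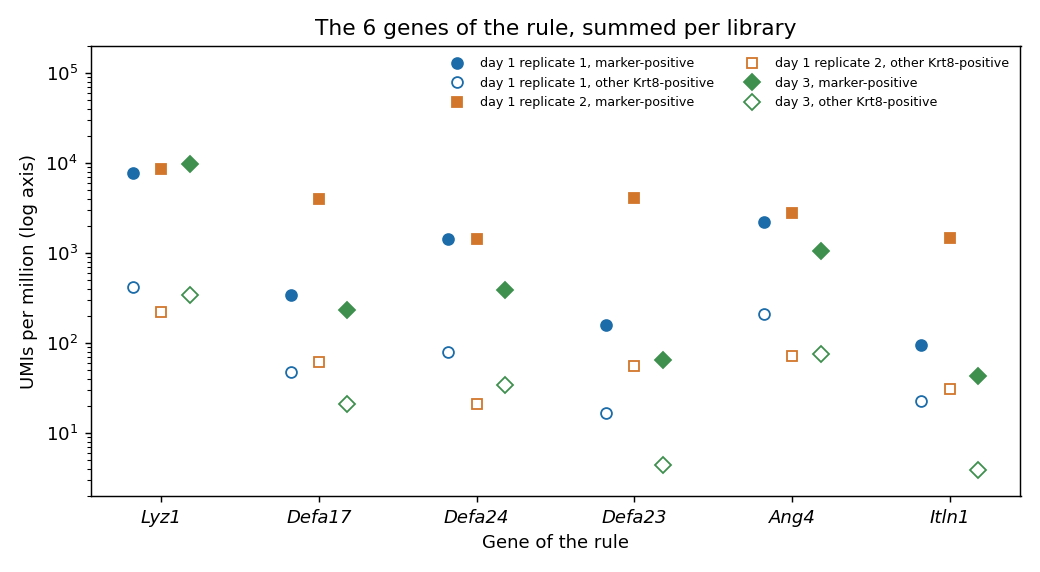
CPM (log axis) of the 6 genes of the rule, summed over marker-positive cells (filled) and other Krt8-positive cells (open) of each library. Lyz1 lies between 7823 and 9693 in marker-positive cells of all libraries, while Defa17, Defa23 and Itln1 are highest in day 1 replicate 2.

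Few cells carried most of the marker UMIs. The lowest, median and highest marker sum per cell was 5, 8 and 1153 UMIs in day 1 replicate 1, 5, 22 and 1416 in day 1 replicate 2, and 5, 26 and 549 in day 3. The tenth of cells with the highest sums held 72.1%, 68.2% and 51.7% of the marker UMIs of their library. At least 3 of the 6 genes were found together in 68 of 87, 97 of 109 and 15 of 37 cells. Marker-positive cells of day 3 thus carried fewer of the genes at once, and Lyz1 had a UMI in 36 of the 37.

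Just inside the rule, 3 cells of day 1 replicate 1 held 5 to 7 marker UMIs at 25.1 to 25.4 per 10000, and the 3 just outside held 6 to 7 at 24.0 to 24.9. In day 1 replicate 2 the cells inside held 13 to 27 marker UMIs at 25.05 to 25.26 and those outside 5 to 15 at 24.6 to 24.8. In day 3 the cells inside held 5 to 6 at 28.9 to 31.5 and those outside 5 to 14 at 22.8 to 24.5. In day 1 replicate 1 and day 3 the cells just inside thus held few marker UMIs, and in day 3 a gap lay between both sides. In day 1 replicate 2 the cells just inside were deep, with 5188 to 10689 UMIs. Their marker UMIs lay around the median of 22 of that library.

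Marker-positive and other Krt8-positive cells were compared within the same 3 libraries, to find which genes outside the rule went with it. Counts were summed per library and side and fitted with edgeR, with the library as a block. Of 10523 genes tested, 366 passed an adjusted p of 0.05 (3.48%), 231 of them higher in marker-positive cells (2.2%) and 135 lower (1.28%). Of the 366 genes, 341 differed in the same direction in all 3 libraries. The groups were set by the marker sum of each cell, so p-values measure the spread between libraries of a difference between cells chosen this way. Without the block, 7 genes passed and 366 had an unadjusted p under 0.05, and without day 1 replicate 2 the count was 131.

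Marker-positive cells were shallower than the comparison cells, and many differences were smaller at matched depth. With cells of 1000 to 3000 UMIs on both sides, a setting chosen after seeing the data, 59 of 4432 genes passed. Of the 12 named higher genes 11 were tested and 9 kept the call, without Ramp1 (log2 difference 1.00) and Best2 (1.17). Of the 12 named lower genes the 4 haemoglobin genes kept it. In the same setting 9 of 14 Paneth genes outside the rule were called higher, as were 7 of 16 goblet and deep crypt genes, while 0 of 7 secretory transcription factors, 0 of 3 niche ligands and 1 of 24 secretion genes were by edgeR. None of the transcription factors and ligands tested there had an unadjusted p under 0.05. Spdef, Atoh1, Wnt3 and Dll4, which were called higher over all cells, were not tested at matched depth. DESeq2 was not run at matched depth.

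Mmp7 (chr9:7692090-7699585), which processes pro-defensins and was not part of the rule, stood at 3077, 2184 and 2939 CPM in marker-positive cells and at 371, 144 and 402 in other Krt8-positive cells. All 3 marker-positive values lay above all 3 comparison values. The log2 difference was 3.37 (SE 0.21, edgeR adjusted p = 1.23e-13), and 2.11 at matched depth. In myeloid cells Mmp7 stood at 520, 118 and 677. With cells thinned to 1000 UMIs, 63.2%, 53.2% and 81.1% of marker-positive cells had an Mmp7 UMI, against 30.3%, 10.6% and 31.1% of other Krt8-positive cells and 41.3%, 13.8% and 29.2% of myeloid cells. Before thinning, the shares in day 1 replicate 1 were 74.7%, 70.9% and 74.3% for these sets. Within a library, Lyz1 and Mmp7 levels per cell had a Spearman rho of 0.47 over 87 cells, 0.45 over 109 cells and 0.73 over 37 cells, where both share each cell's depth and Lyz1 helped to choose the cells. For Mmp7 and the other 5 genes of the rule, rho ran from -0.03 to 0.30, from 0.25 to 0.41 and from -0.17 to 0.33.

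Mmp7 was higher in marker-high than in marker-low cells of each library. In marker-low cells it stood at 1176, 553 and 1839 CPM, and in marker-high cells at 6623, 3224 and 6036. Cells between these bands lay in between in the day 1 libraries (3707 and 1482) and near the marker-low level in day 3 (1684). Against the same comparison cells the log2 difference was 1.89 (SE 0.24) for marker-low cells and 4.18 (SE 0.39) for marker-high cells. Spink4, a secreted peptide of goblet cells, was also higher in marker-high than in marker-low cells of each library, with 2156, 1658 and 3853 in marker-low and 5461, 4011 and 6219 in marker-high cells. The mucin Muc2 did not, with 6854, 3098 and 8801 in marker-low and 7295, 3163 and 7426 in marker-high cells.

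**Figure D3:**
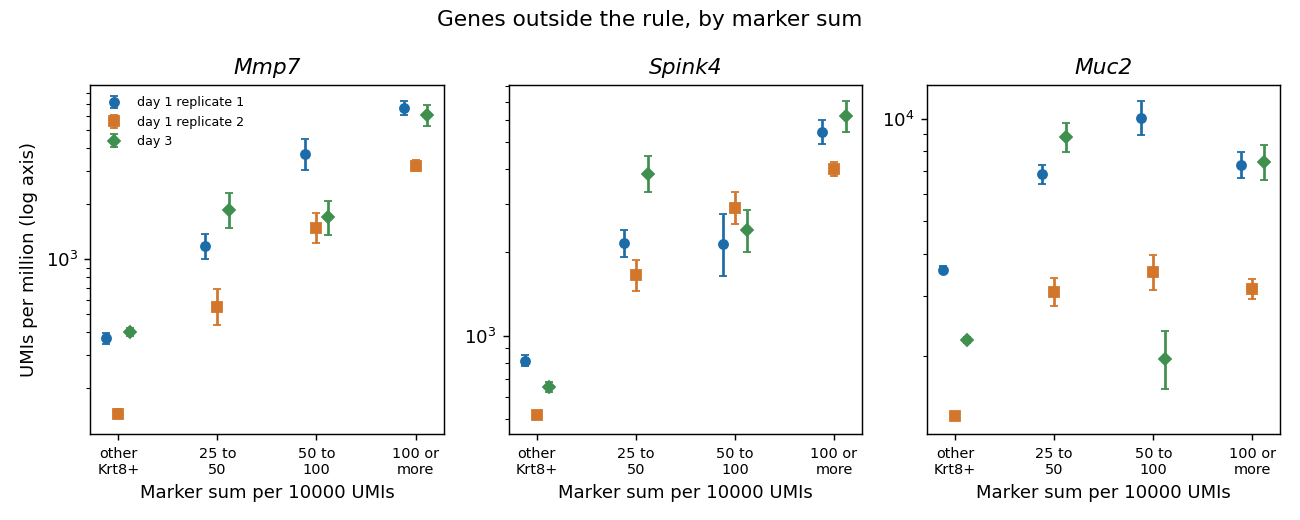
CPM (log axes) of Mmp7, Spink4 and Muc2, which the rule did not use, in other Krt8-positive cells and in marker-positive cells by marker sum per 10000 UMIs, with exact 95% Poisson bars over counts. Mmp7 is at 3224 or more in the band of 100 or more in each library, and Muc2 in that band is near its level in the band of 25 to 50.

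Genes of Paneth cells outside the rule were taken from a list of 33, of which 19 passed the filter on low counts. Of these, 15 were higher and 1 was lower, beside 2.2% and 1.28% of all genes, and 3 did not pass. The median log2 difference was 2.97 against -0.05 for all genes tested. Of the 15, 7 share sequence with a rule gene or are alpha-defensins. Among the 12 tested genes outside that group, 8 were higher, 1 was lower and 3 did not pass, with a median of 1.15. Some low genes passed the filter through the marker-positive sums, so these counts are a description. Ccl6, a chemokine also made by myeloid cells, stood at 465, 419 and 385 CPM against 65.0, 47.0 and 58.2 (log2 difference 3.03, SE 0.18, edgeR adjusted p = 6.37e-14). Pla2g2a, a secreted phospholipase that kills bacteria, stood at 1518, 1368 and 1284 against 859, 468 and 480, a log2 difference of 1.35. Neither gene overlapped between the sides in level. Clps (colipase) and Habp2 (a serine protease) were higher by 2.97 and 4.48 on the log2 scale at few UMIs, Habp2 with 9, 20 and 2 UMIs in marker-positive cells and 3, 8 and 12 in the comparison cells. Pnliprp2, a pancreatic lipase relative, was lower, at 41.1, 91.9 and 7.26 against 141, 271 and 19.0 CPM.

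The list also holds genes whose sequence overlaps that of rule genes. Lyz2, the lysozyme of macrophages, shares 16.1% of the 50-base runs of Lyz1. It was higher by 1.01 on the log2 scale (edgeR adjusted p = 0.00262), with 165, 214 and 58.0 CPM against 103, 90.8 and 49.1. At matched depth it was at 0.06 (edgeR adjusted p = 0.986), and DESeq2 did not call it over all cells. In cells with myeloid genes Lyz2 stood at 6294, 4483 and 294, lowest in day 3. Of the 22 alpha-defensin genes outside the rule, 10 passed the filter on low counts and all of these 10 were called higher. A gene that passed the filter through the marker-positive sums had to be higher there, and reads of near-identical genes may be split among them, so this count is a description. Defa-rs7, named Defa31 in RefSeq, led the named genes with 1621, 4367 and 1857 against 153, 78.6 and 111 CPM (log2 difference 4.53, SE 0.29), and its transcripts share 90.6% of the 50-base runs of Defa23.

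In marker-low cells, 3 of 16 tested genes of the Paneth list were called higher (Defa-rs7, Mmp7 and Ccl6) and Pnliprp2 lower, beside 0.825% of all genes called (0.519% higher, 0.306% lower). In marker-high cells, 15 of 19 were called higher beside 2.6% of all genes called (1.46% higher, 1.15% lower), among them Habp2, Clps, Pla2g2a and Cd24a. Of these 15 genes, 7 share sequence with a rule gene or are alpha-defensins, and Defa-rs7 of the marker-low calls is among them. The bands were cut on the sum of the rule genes, and some low genes passed the filter through the marker-positive sums. These counts are therefore a description. Both comparisons used the same comparison cells, and the difference between the bands was not tested.

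Ligands that Paneth cells supply to stem cells were a short list of 11, with 7 tested. Wnt3, which sustains stem cells in crypt culture, and Dll4, a NOTCH ligand, were called higher, beside 2.2% of all genes. Tgfa, Jag1, Areg, Ereg and Hbegf did not pass. Wnt3 had 6, 17 and 6 UMIs in marker-positive cells and 3, 24 and 6 in the far larger comparison sets, or 24.7, 33.9 and 43.5 against 1.33, 2.82 and 1.66 CPM. Wnt3 passed the filter on low counts through the marker-positive sums, so its fitted log2 difference of 4.05 is a description. Dll4 stood at 8.23, 26.0 and 58.0 against 8.45, 8.70 and 10.8 CPM, and so overlapped in day 1 replicate 1 (log2 difference 1.66, adjusted p = 0.0454).

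Of 13 tested transcription factors of secretory cells, 4 were called higher and none lower, beside 2.2% and 1.28% of all genes. Spdef, which drives goblet and Paneth maturation, stood at 128, 110 and 14.5 CPM against 14.7, 14.9 and 13.0 (log2 difference 2.76, SE 0.32, adjusted p = 2.85e-07). Atoh1, the switch to the secretory lineage, stood at 61.7, 35.9 and 14.5 against 10.7, 4.58 and 6.07. Both rested on 2 UMIs in day 3. Atoh1 passed the filter on low counts through the marker-positive sums, so its place among the 4 calls is a description. Creb3l1 was higher by 1.53 on the log2 scale and Foxa3 by 0.75. At matched depth they were at 0.22 (edgeR adjusted p = 0.887) and 0.46 (edgeR adjusted p = 0.729). Sox9, needed for Paneth cells, stood at 337, 407 and 225 against 330, 294 and 214 (adjusted p = 0.441), and Xbp1, which builds the secretory endoplasmic reticulum, at 181, 186 and 218 against 218, 144 and 251 (adjusted p = 0.88).

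Goblet and deep crypt secretory genes were higher in marker-positive cells as well. Of 18 tested, 15 were called higher and none lower (beside 2.2% and 1.28% of all genes), with a median log2 difference of 1.62. Reg4, the marker of deep crypt secretory cells, stood at 5327, 3412 and 8598 CPM against 1193, 417 and 1502 (log2 difference 2.66, SE 0.20, adjusted p = 8.75e-12). Spink4 stood at 3126, 3163 and 3940 against 812, 518 and 655 (2.47, SE 0.18). Muc2, the gel-forming mucin, stood at 7363, 3203 and 5739 against 3598, 1338 and 2231 (1.31, SE 0.18). The sides did not overlap for Reg4 or Spink4, and for Muc2 they did not overlap within any library. Tff3, Agr2, Retnlb and Fcgbp were called higher too, by 1.62, 1.83, 1.59 and 1.31.

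At matched depth Muc2 and Fcgbp did not pass, at 0.55 (adjusted p = 0.181) and 0.29 (adjusted p = 0.755). Zg16, a goblet cell lectin, did not pass over all cells, at 2048, 136 and 298 against 978, 269 and 178 CPM. In marker-low cells 12 of 17 tested goblet and deep crypt genes were called higher, beside 0.519% of all genes. In marker-high cells it was 13 of 17, beside 1.46% of all genes. A goblet rule built as the marker rule was, on Muc2, Fcgbp, Tff3, Clca1, Zg16 and Spink4, was met by 97.7%, 77.1% and 94.6% of marker-positive cells. It was met by 84.2%, 20.2% and 34.9% of other Krt8-positive cells and by 98.2%, 30.7% and 45.8% of myeloid cells, which should lack these genes. In day 1 replicate 1 the share of marker-positive cells was thus no higher than that of myeloid cells. Of those myeloid cells 94.5% had a Krt8 UMI, and the source of their goblet gene UMIs was not tested.

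**Figure D4:**
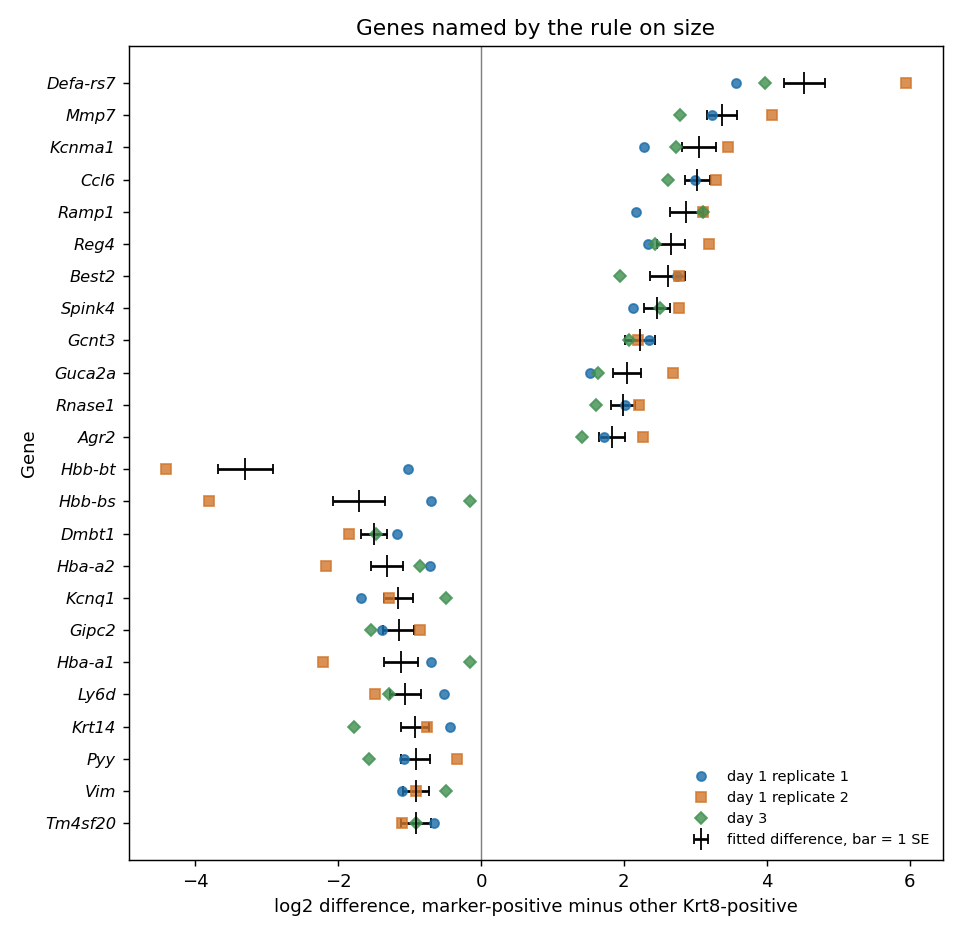
The 12 genes with the largest log2 difference in each direction among genes called, with the same sign in all libraries and at least 100 CPM on the higher side of each. Coloured points are single libraries, on CPM with 1 added, and black ticks are the fitted difference with 1 SE. Hbb-bt has no day 3 point because marker-positive cells held 0 UMIs there. Points of the higher genes lie right of 1, and haemoglobin genes spread most between libraries.

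Other named genes that were higher include channels and receptors. Kcnma1, a calcium-activated potassium channel, stood at 111, 381 and 116 CPM against 24.9, 37.8 and 15.7 (log2 difference 3.05). Best2, a bicarbonate channel of colonic goblet cells, stood at 160, 124 and 116 against 26.2, 19.4 and 27.6 (2.61). Ramp1, a partner of the CGRP receptor, stood at 140, 182 and 203 against 34.3, 22.8 and 21.5 (2.87). None of these overlapped between the sides, though at matched depth Ramp1 (adjusted p = 0.322) and Best2 (adjusted p = 0.229) did not pass and Kcnma1 was not tested. In cells thinned to 1000 UMIs Best2 did not pass either (1.51, adjusted p = 0.0653). Gcnt3, which branches mucin glycans, Guca2a (guanylin) and Rnase1 were higher by 2.23, 2.04 and 1.99.

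Of 29 tested genes of the endoplasmic reticulum and secretion, 8 were called higher and none lower, beside 2.2% and 1.28% of all genes. Their median log2 difference was 0.50. Txndc5, a protein disulfide isomerase, and Ern2, the stress sensor of mucus cells, differed most among them, by 1.39 and 1.64. At matched depth Txndc5 was at 0.15 (edgeR adjusted p = 0.962) and Ern2 at 0.49 (edgeR adjusted p = 0.782). The chaperone Hspa5 stood at 806, 633 and 682 CPM against 647, 446 and 601 and did not pass (adjusted p = 0.191). Among 19 tested epithelial defence genes 4 were called higher and 2 lower, beside 2.2% and 1.28% of all genes. Reg3g, a lectin that kills gram-positive bacteria, stood at 3439, 893 and 2140 against 980, 331 and 807 (log2 difference 1.64), and Slpi, a protease inhibitor, was higher by 1.32. Ltf (lactoferrin) and Cxcl5, a chemokine for neutrophils, were lower by -1.12 and -0.87, though Cxcl5 stood at 132 against 124 in day 1 replicate 1.

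Of 25 tested stem cell and WNT target genes, 1 was called higher and 4 lower (beside 2.2% and 1.28% of all genes) by edgeR and 1 by DESeq2, with a median log2 difference of -0.44. Ephb3, the receptor that positions Paneth cells at the crypt base, stood at 156, 178 and 268 CPM against 81.9, 94.6 and 148 (log2 difference 0.99, adjusted p = 0.000567). Smoc2, Notum, Znrf3 and Prox1 were lower, by -0.95, -0.70, -0.85 and -0.79. At matched depth 0 of 18 tested genes of this list were called by edgeR, and 3 had an unadjusted p under 0.05. There Ephb3 was at -0.13 (edgeR adjusted p = 0.968), and the 4 lower genes were at -0.57, -0.03, -0.85 and -0.13. Lgr5, the stem cell receptor for R-spondin, stood at 222, 150 and 102 against 293, 207 and 94.1 (adjusted p = 0.726). Of 30 tested S and G2M genes, only the mitotic kinase Plk1 was called higher by edgeR, a share near the 2.2% of all genes, and none by DESeq2. In marker-high cells Mki67 and Mcm5 were lower among 29 tested, beside 1.15% of all genes. Over all marker-positive cells Mki67 stood at 24.7, 26.0 and 14.5 against 48.5, 54.2 and 40.6 (adjusted p = 0.133). None of 21 tested p53 target genes passed by edgeR or DESeq2, and 1 had an unadjusted p under 0.05.

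**Figure D5:**
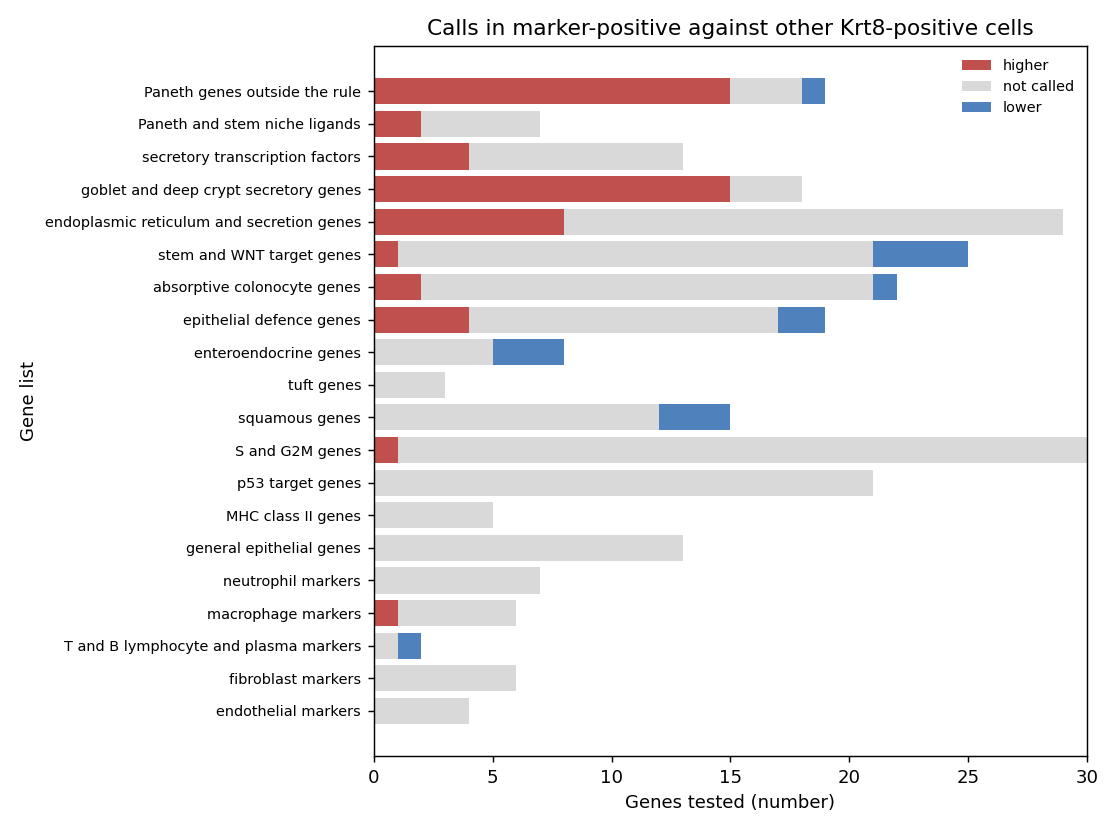
Number of tested genes of each list that were called higher (red), lower (blue) or not called (grey) in marker-positive against other Krt8-positive cells at an adjusted p of 0.05. Red bars cover 15 of 19 Paneth genes outside the rule and 15 of 18 goblet and deep crypt secretory genes. Of the Paneth genes in red, 7 share sequence with a rule gene or are alpha-defensins.

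Among genes of other epithelial types, both directions were found. The enteroendocrine genes Chga, Chgb and Pyy were lower among 8 tested, beside 1.28% of all genes. Chgb stood at 12.3, 28.0 and 7.26 CPM against 193, 97.4 and 76.1 (log2 difference -2.44, SE 0.33, adjusted p = 3.79e-06). The keratins Krt5, Krt14 and Krt15 were lower among 15 tested squamous genes, beside 1.28% of all genes. Krt14 stood at 535, 745 and 334 against 818, 1413 and 1082, a difference of -0.93 that turned to 1.63 when squamous cells were left out of the comparison cells. Of 22 absorptive colonocyte genes, Guca2a and Ceacam1 were called higher and the membrane mucin Muc3 lower, beside 2.2% and 1.28% of all genes. In marker-high cells 6 absorptive genes were lower beside 1.15% of all genes, among them Krt20 and Car2.

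Haemoglobin genes of red blood cells were among the named decreases. Hbb-bt had 17, 16 and 0 UMIs in marker-positive cells, or 69.9, 31.9 and 0 CPM against 162, 790 and 135 (log2 difference -3.30, SE 0.38, adjusted p = 2.11e-07). By DESeq2 Hbb-bt (adjusted p = 0.184), Hbb-bs (0.999) and Hba-a1 (0.949) did not pass. Hbb-bs, Hba-a2 and Hba-a1 were lower by -1.71, -1.31 and -1.12, and without day 1 replicate 2 they did not pass, at -0.48, -0.75 and -0.46. They also did not pass without squamous comparison cells. Dmbt1, a secreted scavenger protein of epithelium, stood at 317, 118 and 631 against 814, 478 and 1652 (-1.50, SE 0.18) and did not pass at matched depth (-0.49, adjusted p = 0.322). The ion channel Kcnq1, Gipc2, Tm4sf20, Ly6d and Vim were lower by -1.16, -1.15, -0.91, -1.06 and -0.91, and of these Tm4sf20, Ly6d and Vim did not pass without day 1 replicate 2, at -0.74, -0.83 and -0.89. Vim also did not pass without day 1 replicate 1, at -0.78. Pyy, lower by -0.92, did not pass without day 1 replicate 1, at -0.87. At matched depth Kcnq1, Gipc2, Tm4sf20, Ly6d, Vim, Krt14 and Pyy did not pass, at -0.81, -0.83, -0.28, -0.21, -0.02, -0.21 and -0.47.

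Markers of non-epithelial cells were read beside these results. Summed over 10 neutrophil markers, levels ran from 116 to 167 CPM in marker-positive cells and from 106 to 162 in the comparison cells, and none of 7 tested was called by edgeR or DESeq2 or had an unadjusted p under 0.05. Macrophage markers summed to 276 to 489 against 296 to 413, with Lyz2 called higher among 6 tested by edgeR and none called by DESeq2. Fibroblast markers summed to 319 to 475 against 258 to 314, with none of 6 called by edgeR or DESeq2 and 2 at an unadjusted p under 0.05. Endothelial markers summed to 21.8 to 78.2 against 40.9 to 59.9, with none of 4 called by either tool and 0 at that unadjusted p. Lymphocyte and plasma markers, mostly Igkc, summed to 377 to 5610 against 313 to 4240, and Jchain was called lower among 2 tested. The excluded genes Tyrobp, Ptprc, Csf3r, Pecam1 and Dcn are at 0 on both sides by the rule. None of 3 tuft, 5 MHC class II or 13 general epithelial genes tested was called by edgeR or DESeq2, and 1 of the last had an unadjusted p under 0.05.

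Promoters were searched for the TCF motif CTTTGAT on both strands. It is found in 3.21% of 32851 RefSeq promoter windows of 250 bases before a gene start (GRCm38.p6). The window of Defa23 at chr8:21054790-21055039, plus strand, held 2 matches, both on the minus strand and shown in capitals.
Defa23: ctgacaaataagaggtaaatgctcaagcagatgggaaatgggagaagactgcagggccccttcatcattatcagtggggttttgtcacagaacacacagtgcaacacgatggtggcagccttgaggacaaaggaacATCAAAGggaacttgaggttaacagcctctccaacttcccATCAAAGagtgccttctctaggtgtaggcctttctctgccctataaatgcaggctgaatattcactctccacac
The windows of Lyz1, Ang4, Itln1, Reg4, Wnt3 and the first start of Mmp7 held 0 matches, and a window before a second listed start, inside the gene, held 1. Defa17, Defa24 and Spink4 were not analysed here. A match is a description of these letters and no evidence of binding.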

How the data were processed

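The authors deposited raw UMI counts per barcode and gene, 1 table per inDrop library, made with dropEst from reads aligned to GRCm38 (also named in the submitters' processing notes), without normalization. Depth was 5132360, 16904947 and 6659486 UMIs in the 3 libraries. Barcodes with at least 500 genes and at most 15% mt- counts were kept, from 752, 2450 and 1419. Comparison cells had a Krt8 UMI, none of the 5 excluded genes and a marker sum below the rule.

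Counts were summed per library and side. The 6 rule genes, the 5 excluded genes and Krt8 were left out, and the rest was fitted with edgeR 4.0.16 in R 4.3.3 (TMM, filterByExpr, library as block, quasi-likelihood test, Benjamini-Hochberg adjustment over all genes tested, threshold 0.05). The fit was tested on simulated data. DESeq2 1.42.0, other limits, other comparison cells, thinning to 1000 UMIs and leaving out each library were alternatives. Scrublet (scanpy 1.11.5) called 3, 3 and 6 doublets, too few to rely on, so none was removed. In an alternative the 6% of cells with the highest scores, ties included, were left out.

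Genes named in the text are the 12 with the largest log2 difference in each direction among genes with an adjusted p under 0.05, the same sign in all 3 libraries and at least 100 CPM on the higher side of each library, without ribosomal, mitochondrial, Gm and Rik genes, and members of the gene lists. Mki67, Lgr5, Sox9 and other list members that did not pass are named for their roles. Members and lists were chosen with earlier results of these data known. Shared 50-base runs were counted in GENCODE M21 transcripts. CPM are a gene's counts relative to all UMIs of the cells summed, without TMM factors. Intervals are exact 95% binomial or Poisson intervals and cover counting error only. The study calls the day 1 libraries biological replicates.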

Additional observations from a re-analysis of the deposited data

How the results depend on the processing

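Against 366 genes called, counts within 1.5 times were found with Krt8-positive members (401), doublet candidates removed (401), rule genes kept in library sizes (401), no filter on low counts (373), a member limit of 10 UMIs and 50 per 10000 (398), squamous cells left out (309) and marker-high members (259). Fewer were called by DESeq2 (176), with at least 3 of the 6 genes (227), with the limit set without Lyz1 (196), in cells thinned to 1000 UMIs (74 of 4681 tested), without the library block (7, all higher), and, chosen after seeing the data, in marker-low members (81) and in cells of 1000 to 3000 UMIs on both sides (59 of 4432 tested). With comparison cells that may carry the excluded genes, 657 were called, 272 higher and 385 lower. Higher genes made up 63.1% of calls, 84.7% by DESeq2 and 52.8% without the filter on low counts. Leaving out 1 library gave 131 (without day 1 replicate 2) to 460 calls (without day 3). The library block already pairs both sides within each library. Of 366 calls, 173 were also called by DESeq2 and 116 without day 1 replicate 2. The number of marker-positive cells was 106 with the stricter limit, 106 without Lyz1, 180 with 3 of the 6 genes, and 369 where excluded genes were allowed. Of 431 values of the 24 named genes under alternatives, 350 kept direction and call, 79 lost the call and 2 reversed: without squamous comparison cells, Krt14 was 1.63 and Ly6d 0.014 (adjusted p = 0.991), where the setting itself removes the cells with the most Krt5 and Krt14. Of the 79, 21 were without the library block and 7 in thinned cells. All genes tested had a median between -0.32 (no filter) and -0.01. The depth of 137825 UMIs in day 3 marker-positive cells limits low genes.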
